A study of Homo sapiens with 6 samples.

Results

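Midkine and osteopontin are secreted proteins that reach cells through an overlapping set of surface receptors. The 7 genes described here are the ligands MDK (midkine) and SPP1 (osteopontin) and the receptors CD44, SDC1, SDC3, SDC4 and LRP1, found by symbol among the 27238 named rows of the expression table. They were selected on their FPKM in these same libraries, with the contrast between the groups already known. Their differences between groups are therefore given as a description with no test. Tests are given for BMI1, for cell type markers and for other genes of the pathway, with counts over all tested rows beside them. The pathway lists were also chosen with earlier results of these data known.

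The samples were QBC-939 cells, labelled as human cholangiocarcinoma, a cancer of the bile duct. Control cells received a scrambled shRNA and the others an shRNA against BMI1, a subunit of Polycomb repressive complex 1, and both were collected 48 h after treatment. Each group held 3 libraries that the design text calls independent transfections. No label says whether the knockdown cells were a pool or 1 clone, and the design text calls the scrambled control siRNA in 1 place. Levels are in FPKM, the fragments of a gene divided by transcript length and by the mapped fragments of the library. The comparison asked how mRNA levels differ when BMI1 is lowered.

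Midkine is a small heparin-binding growth factor that is abundant in the embryo, scarce in most adult tissues and raised in many carcinomas. Osteopontin is an acidic phosphoprotein of bone and body fluids that cells bind through an RGD motif recognised by integrins, and through CD44. Syndecans are membrane proteins whose heparan sulfate chains hold growth factors such as midkine at the cell surface, CD44 is the main receptor for hyaluronan, and LRP1 is a large endocytic receptor that binds and clears many secreted proteins, midkine among them.

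BMI1 was lower in each of the 3 libraries labelled Bmi1 shRNA, at 1.49, 1.19 and 2.65 FPKM, than in the control libraries, at 6.65, 5.34 and 6.09 FPKM (limma, adjusted p = 0.00162; exact two-sided permutation test, p = 0.1, the lowest value possible with 3 libraries a side). Summed FPKM ran from 332910 to 341268 in the control libraries and from 352800 to 360371 in the Bmi1 shRNA libraries. The depth in reads is unknown, and values carry no counting interval. The epithelial keratins KRT18, KRT8 and KRT19 averaged 840, 549 and 287 FPKM in control and 707, 499 and 211 FPKM in Bmi1 shRNA libraries, and the biliary keratin KRT7, named after its value was seen, 2.74 and 2.80 FPKM. Of the 8 biliary epithelium markers, all tested, 3 fell, KRT18 and KRT19 among them, 1 rose and 4 did not pass (limma, adjusted p under 0.05). Over all 11016 tested rows 28.5% were lower and 28.6% higher at that threshold, so nothing is read from the counts of markers called. The summed level of the list went from between 1810 and 1970 FPKM to between 1540 and 1780 FPKM, without overlap. Fibroblast markers summed to at most 0.445 FPKM and endothelial markers to at most 0.0463 FPKM in any library. Among the leukocyte markers with a value CD14 and CSF1R averaged under 1 FPKM, and LYZ, lysozyme, which epithelia also make, averaged 1470 FPKM in control and 1530 FPKM in Bmi1 shRNA libraries. LYZ was not called (log2 fold change 0.06), but was called lower (-0.53) with the trend described further on taken out. Of 5 hepatocyte markers with a value, 2 were tested and both rose, SERPINA1 from 156 to 215 FPKM and TTR from 6.11 to 18.7 FPKM (limma, adjusted p = 0.000619 and 0.000243), and the summed level of the list went from between 156 and 166 FPKM to between 228 and 240 FPKM. APOA1, next by level, averaged 0.139 and 0.147 FPKM. The part of these markers in the results below was not tested. In bulk RNA of this kind, fewer cells of a type and less RNA per cell cannot be told apart.

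Promoter windows were taken from RefSeq (GRCh38.p14), running from 250 bases before to 50 bases after the start of transcription. They were matched by symbol for 6 of the 7 genes, with none for MDK, so SPP1 is the only ligand with a window. Shown are that window and the window of the receptor with the largest log2 difference downward. The windows are SPP1 at chr4:87975464-87975763 and CD44 at chr11:35138921-35139220, both on the forward strand and written 5′ to 3′. Capitals mark matches, on either strand, to the motifs searched: the GC box GGGCGG, the hypoxia element core ACGTG, the RUNX motif TGTGGT, the AP-1 motif TGANTCA, the nuclear receptor motif AGGTCA, the TATA box TATAAA and the E-box CACGTG, which contains the hypoxia core.
SPP1: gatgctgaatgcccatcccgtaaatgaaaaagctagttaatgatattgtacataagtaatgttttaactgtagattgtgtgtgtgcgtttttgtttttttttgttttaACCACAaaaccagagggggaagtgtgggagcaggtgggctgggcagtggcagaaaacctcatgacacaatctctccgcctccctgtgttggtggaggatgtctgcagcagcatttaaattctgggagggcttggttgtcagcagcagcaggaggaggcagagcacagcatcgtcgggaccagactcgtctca
CD44: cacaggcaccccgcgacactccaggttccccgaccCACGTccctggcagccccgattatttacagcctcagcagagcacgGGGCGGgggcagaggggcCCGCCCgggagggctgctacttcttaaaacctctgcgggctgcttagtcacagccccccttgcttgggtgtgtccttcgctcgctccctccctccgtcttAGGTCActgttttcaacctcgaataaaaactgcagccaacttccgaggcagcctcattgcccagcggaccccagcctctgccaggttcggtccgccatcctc

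The SPP1 window differed in composition from those of the receptors. It held 47.7% G and C and 6 CpG dinucleotides, where the median over 35116 promoter windows of the same length was 58.7% and 14. The receptor windows held 63.3% (CD44), 67.7% (SDC1, the first of 2 starts in the table), 84.0% (SDC3), 74.0% (SDC4) and 67.0% (LRP1), with between 18 and 46 CpG dinucleotides each. SPP1 had 1 match among the motifs, to RUNX, on the reverse strand with its first base at -142, and 13.1% of all windows hold that motif. The GC box was matched in 5 of 6 windows, with 8 matches in SDC4, 6 in SDC3, 2 in CD44, 1 each in SDC1 and LRP1 and 0 in SPP1, against 45.0% of all windows with a match. CD44 also matched the hypoxia core (21.4% of all windows) and the nuclear receptor motif (13.8%). The AP-1, TATA and E-box letters were in none of the 6 windows and in 7.71%, 11.5% and 7.26% of all windows. A match is a description of letters, not a site in use.

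Both ligands were several-fold higher in the Bmi1 shRNA libraries, and each of the 5 receptors was lower, by less. MDK (ENSG00000110492.15; GRCh38, chromosome 11, 46380756 to 46383837) read 5.33, 5.55 and 5.86 FPKM with scrambled shRNA and 23.2, 26.3 and 25.7 FPKM with Bmi1 shRNA. The lowest Bmi1 shRNA library stood far above the highest control library. The means were 5.58 ± 0.270 and 25.1 ± 1.63 FPKM (SD, n = 3 each), a ratio of 4.49, and the log2 difference of FPKM + 1 was 1.99 with a standard error of 0.07, the 13th largest upward of 11016 tested rows.

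SPP1 (ENSG00000118785.13; chromosome 4, 87975650 to 87983426), the osteopontin gene, read 7.14, 5.95 and 5.81 FPKM with scrambled shRNA and 19.9, 23.8 and 21.6 FPKM with Bmi1 shRNA. The groups were again well apart, with control replicate 1 the highest of its group. The means were 6.30 ± 0.733 and 21.8 ± 1.99 FPKM (SD, n = 3 each), a ratio of 3.45 and a log2 difference of 1.64 with a standard error of 0.10, the 19th largest upward. The ligands stood at like levels in both groups: the ranges of MDK and SPP1 overlapped among control libraries and again among Bmi1 shRNA libraries. MDK made up 47.1% ± 3.90 of the summed FPKM of the pair in control and 53.6% ± 1.03 in Bmi1 shRNA libraries (SD, n = 3 each).

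CD44 (ENSG00000026508.18; chromosome 11, 35138870 to 35232402), which binds hyaluronan and also osteopontin, had the largest difference among the receptors on the log2(FPKM + 1) scale. It read 28.7, 30.7 and 33.3 FPKM with scrambled shRNA and 18.0, 17.3 and 20.0 FPKM with Bmi1 shRNA. No Bmi1 shRNA library reached the control range. The means were 30.9 ± 2.34 and 18.4 ± 1.39 FPKM (SD, n = 3 each), 59.6% of control, with a log2 difference of -0.72 and a standard error of 0.08. The antisense gene CD44-AS1 overlaps it and averaged 0.0984 and 0.0250 FPKM.

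LRP1 (ENSG00000123384.13; chromosome 12, 57128493 to 57213351), the endocytic receptor, was the lowest of the 7 in level in both groups. It read 3.50, 4.35 and 3.61 FPKM with scrambled shRNA and 2.02, 1.77 and 2.70 FPKM with Bmi1 shRNA. The groups did not overlap, but Bmi1 shRNA replicate 3 lay closer to the controls than the other libraries of its group. The means were 3.82 ± 0.462 and 2.16 ± 0.482 FPKM (SD, n = 3 each), 56.7% of control and the lowest such share of the 7 genes, and the log2 difference was -0.61 with a standard error of 0.13. STAT6, a transcription factor gene on the opposite strand, overlaps LRP1 over 3647 bases and averaged 12.4 and 7.25 FPKM. The use of strand in counting is unknown, so reads from that overlap cannot be told apart.

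The syndecans were lower as FPKM, by smaller amounts, and the direction of SDC1 and SDC3 turned when the trend described further on was taken out. SDC4 (ENSG00000124145.6; chromosome 20, 45325288 to 45348424), the syndecan of focal adhesions, had the highest level of the 7 genes. It read 85.2, 83.4 and 84.3 FPKM with scrambled shRNA and 65.6, 58.6 and 63.1 FPKM with Bmi1 shRNA, so the means went from 84.3 ± 0.931 to 62.5 ± 3.55 FPKM (SD, n = 3 each) with a log2 difference of -0.43 and a standard error of 0.06. The control libraries were nearly equal and all above the others.

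SDC1 (ENSG00000115884.10; chromosome 2, 20200797 to 20225433), the main syndecan of epithelia, read 47.6, 54.3 and 52.8 FPKM with scrambled shRNA and 43.8, 43.2 and 46.4 FPKM with Bmi1 shRNA. Control replicate 1 lay just above the highest Bmi1 shRNA library. The means were 51.6 ± 3.52 and 44.5 ± 1.67 FPKM (SD, n = 3 each), with a log2 difference of -0.21 and a standard error of 0.07, the smallest of the 7 genes in size.

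SDC3 (ENSG00000162512.15; chromosome 1, 30869467 to 30908761), best known from the nervous system, read 4.64, 5.65 and 5.21 FPKM with scrambled shRNA and 4.32, 3.48 and 4.13 FPKM with Bmi1 shRNA. The groups came close to each other without overlapping. The means were 5.17 ± 0.506 and 3.98 ± 0.443 FPKM (SD, n = 3 each), with a log2 difference of -0.31 and a standard error of 0.09. SDC2, the remaining syndecan, was listed at 0 in all control libraries and averaged 0.00408 FPKM in the Bmi1 shRNA libraries. The makeup of the syndecans moved little: SDC4 was 59.8% ± 1.98 of their summed FPKM in control and 56.3% ± 1.20 in Bmi1 shRNA libraries, and SDC1 was 36.6% ± 1.71 and 40.1% ± 1.40 (SD, n = 3 each).

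**Figure D1:**
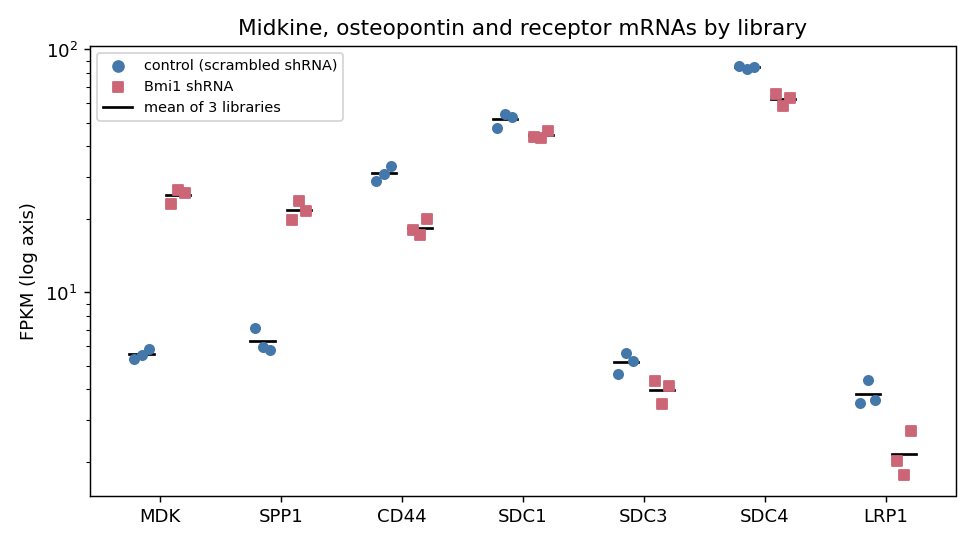
FPKM on a log axis of the 7 genes in each library, with circles for 3 control libraries, squares for 3 Bmi1 shRNA libraries and black lines for group means. MDK goes from a mean of 5.58 to 25.1 FPKM and SPP1 from 6.30 to 21.8 FPKM, while the 5 receptors are lower with Bmi1 shRNA, SDC1 the least (51.6 to 44.5 FPKM).

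All 7 genes had groups that did not overlap, 2 higher and 5 lower with Bmi1 shRNA. The same held for 65.4% of all tested rows, 32.3% higher and 33.1% lower, and since the genes were proposed with this contrast known, nothing is read from their count. In control cells the order of levels was SDC4, SDC1, CD44, SPP1, MDK, SDC3 and LRP1, and SPP1 and MDK, and MDK and SDC3, overlapped in range. In the Bmi1 shRNA libraries MDK and SPP1 stood between SDC1 and CD44, with overlaps between MDK and SPP1 and between SPP1 and CD44. Among tested rows MDK went from percentile 52.0 to percentile 85.2 of level and SPP1 from 55.4 to 83.2, while LRP1 went from 41.1 to 22.7. FPKM is scaled to transcript length, so these orders compare levels between genes. Summed over the ligands the level went from 11.9 ± 0.518 to 46.8 ± 3.54 FPKM, and summed over the 5 receptors from 176 ± 5.30 to 132 ± 6.28 FPKM (SD, n = 3 each). The ligand sum was thus 6.77% ± 0.504 of the receptor sum in control and 35.7% ± 4.14 in Bmi1 shRNA libraries. These orders and sums use the deposited values and were not computed with the trend described next taken out.

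Differences in this series went with the GC content and length of the transcript. The 7 genes are spread over those scales, with CD44 and SDC4 near the middle in GC content. Among 10 equal groups of tested genes formed by GC content, the median log2 fold change was 0.48 in the lowest and between -0.24 and -0.12 from the fifth group upward. MDK, at 63.1% GC, lies in the group with a median of -0.15, and its log2 difference was 1.86 with a standard error of 0.05 after that trend was taken out of each library. SPP1, at 41.2% GC, lies in a group with a median of 0.35, and its difference was 1.05 with a standard error of 0.08. Both ligands stayed higher, SPP1 by less.

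Among the receptors, CD44 (45.3% GC) and SDC4 (48.8% GC) kept differences of -0.63 and -0.31 with the trend removed (standard errors 0.07 and 0.05). LRP1, at 60.1% GC and with a transcript of 14897 bases in the longest of 10 groups by length, went to -0.14 with a standard error of 0.07. SDC1 (60.1% GC) went to 0.08 and SDC3 (58.7% GC) to 0.11, with standard errors of 0.04 and 0.07, so their direction was opposite to that of the deposited values. The correction also takes away any true difference that goes with GC content or length.

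**Figure D2:**
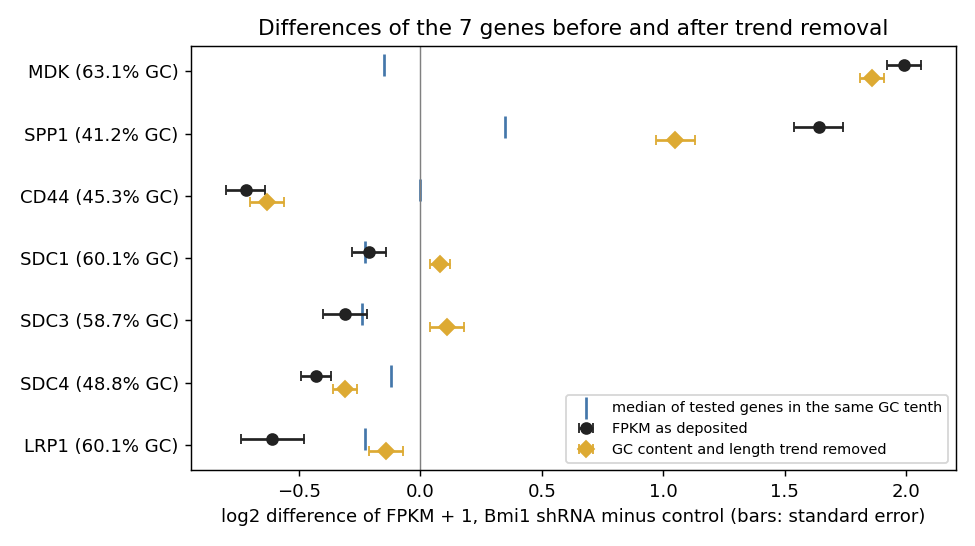
Log2 difference of FPKM + 1 (Bmi1 shRNA minus control, horizontal axis) of the 7 genes, with circles for the deposited values, diamonds for values after trend removal, standard errors as bars, and a vertical tick for the median of tested genes in the same 1 of 10 groups by GC content. MDK (1.99 and 1.86) and SPP1 (1.64 and 1.05) are higher in both, CD44, SDC4 and LRP1 lower in both, and SDC1 and SDC3 change sides of 0.

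The spread within a group differed among the 7 genes. The coefficient of variation ran from 1.10% for SDC4 to 12.1% for LRP1 in control libraries and from 3.75% for SDC1 to 22.3% for LRP1 in Bmi1 shRNA libraries. The medians over tested rows were 7.32% and 8.55%. For MDK it was 4.84% and 6.49%, and for SPP1 11.6% and 9.13%.

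Few genes moved as far as the ligands on the log2(FPKM + 1) scale of the deposited values, but both were selected with this contrast known. By the distance between profiles of log2(FPKM + 1) over the 6 libraries, each centred on its mean, the 5 genes nearest to MDK were NEUROG3 (distance 0.20), MMP1 (0.28), TFRC (0.40), NEURL1 (0.42) and FXYD2 (0.45). NEUROG3, which drives endocrine cell fate, went from 0.718 ± 0.162 to 6.17 ± 0.317 FPKM, and MMP1, the interstitial collagenase, from 2.71 ± 0.124 to 12.7 ± 0.594 FPKM (SD, 3 libraries each). The 5 nearest to SPP1 were TCEAL9 (0.18), FXYD2 (0.26), NEURL1 (0.27), TFRC (0.29) and LDHB (0.32). LDHB, a lactate dehydrogenase subunit, went from 83.9 ± 7.73 to 242 ± 30.0 FPKM and TCEAL9 from 10.1 ± 0.963 to 31.7 ± 3.36 FPKM (SD, 3 libraries each). With the trend removed SPP1, at 1.05, lay below all 5 of these genes, which ran from 1.24 (TCEAL9) to 1.99 (NEURL1). MDK and SPP1 lay 0.51 apart, so other genes were nearer to each of them. NEUROG3 and NEURL1 averaged 0.718 and 0.773 FPKM in control, and reached the filter of 1 FPKM through the Bmi1 shRNA libraries. With a pseudocount of 0.1 FPKM their log2 fold changes were 2.96 and 2.44, against 2.15 for MDK and 1.77 for SPP1. The distances to such low genes therefore depend on the pseudocount. A distance over 6 libraries in 2 groups mostly reflects the size of the group difference, so no test of that difference is given for genes chosen by it.

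Other genes of the pathway were taken from 9 lists, in which 104 genes were tested. Of these 52 fell, 17 rose and 35 did not pass, so 66.3% passed, and the median log2 fold change was -0.22. Over all 11016 tested rows 57.1% passed, 28.5% lower and 28.6% higher, with a median of -0.02 (limma, Benjamini-Hochberg adjusted p under 0.05). At an unadjusted p under 0.05 there were 6896 rows. The lists were chosen with earlier results of these data known and were not tested as sets, so nothing is read from their share against that of all rows.

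Of the alternative receptors and relatives of the ligands, 4 were tested, 2 rose and 2 fell. NCL, nucleolin, a nucleolar protein that also binds midkine at the cell surface, rose from 59.3, 55.7 and 58.2 FPKM to 73.7, 94.0 and 81.6 FPKM (log2 fold change 0.51, standard error 0.09; limma, adjusted p = 0.00400). LRP8, a receptor that binds reelin, fell from 8.97, 9.43 and 8.78 FPKM to 6.27, 5.81 and 6.41 FPKM (log2 fold change -0.49; limma, adjusted p = 0.00109), and NOTCH2, a Notch receptor, fell from 3.09 ± 0.285 to 1.76 ± 0.312 FPKM (SD, 3 libraries each; limma adjusted p = 0.00411). None of these groups overlapped, and with the trend removed the log2 fold changes of NCL, LRP8 and NOTCH2 were 0.65, -0.24 and -0.20, all called. LRP6, the WNT coreceptor, rose from 2.24 ± 0.126 to 2.77 ± 0.188 FPKM (SD, 3 libraries each; limma adjusted p = 0.0293), a call that ended with the trend removed (log2 fold change 0.02; adjusted p = 0.772). Leaving out any 1 of 4 libraries (replicates 1 and 3 of either group) ended it too, at adjusted p between 0.0580 and 0.0915. PTN, the relative of midkine, and its receptors PTPRZ1 and ALK were not analysed here.

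The integrin subunits that pair to bind osteopontin or midkine moved in both directions: of 5 tested, 3 rose, 1 fell and 1 did not pass, with a median log2 fold change of 0.29. ITGB1, the beta subunit shared by many integrins, rose from 13.4, 14.1 and 10.5 FPKM to 23.2, 23.6 and 32.2 FPKM (ratio of means 2.08; standard error 0.16 on the log2 scale; limma, adjusted p = 0.00254). ITGB5, which pairs with the alpha V subunit, fell from 30.6, 32.0 and 33.1 FPKM to 19.5, 19.9 and 19.5 FPKM (log2 fold change -0.67, standard error 0.05; limma, adjusted p = 0.000329). Neither gene had overlapping groups, and ITGB5 went from the highest of the 5 in control to below ITGB1.

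ITGAV, the alpha V subunit itself, rose from 2.54 ± 0.0964 to 3.88 ± 0.409 FPKM and ITGB6, an epithelial partner of alpha V, from 3.19 ± 0.202 to 4.13 ± 0.275 FPKM (SD, 3 libraries each; limma adjusted p = 0.00302 and 0.0121). With the trend removed neither was called, at log2 fold changes of 0.14 and -0.01 (limma, adjusted p = 0.102 and 0.882), while ITGB1 (0.64) and ITGB5 (-0.34) were. ITGA6, a laminin receptor subunit also described as a midkine receptor, measured 19.3, 18.6 and 12.0 FPKM in control and 10.9, 16.2 and 11.1 FPKM in Bmi1 shRNA libraries (limma, adjusted p = 0.200). Its groups overlapped, and without control replicate 3 it was called lower (log2 fold change -0.56; adjusted p = 0.0439). The median GC content of the 5 genes was 40.1%, against 50.4% over all tested genes.

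**Figure D3:**
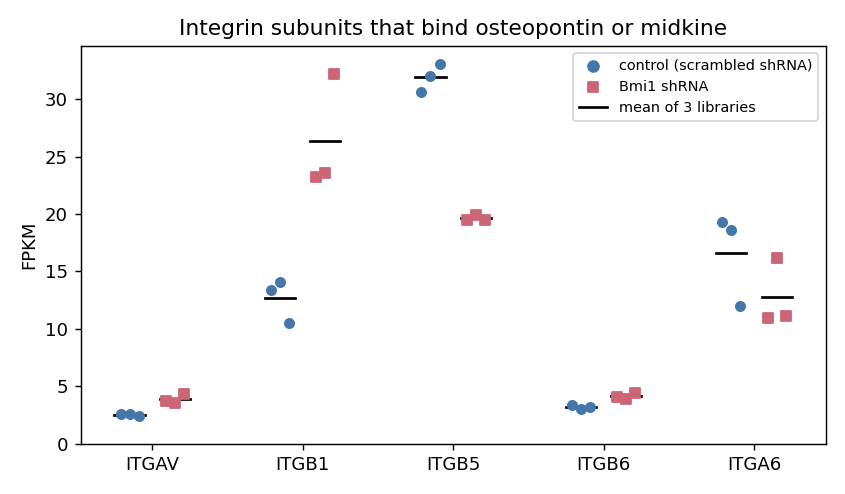
FPKM of 5 integrin subunits in each library, with circles for 3 control libraries, squares for 3 Bmi1 shRNA libraries and black lines for group means. ITGB1 goes from a mean of 12.7 to 26.3 FPKM and ITGB5 from 31.9 to 19.7 FPKM, and the groups of ITGA6 overlap.

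The mRNAs of genes that assemble or edit heparan sulfate chains, which bind midkine, or supply their building blocks, moved both ways. Of 21 tested, 7 fell, 4 rose and 10 did not pass, with a median log2 fold change of -0.17. Both subunits of the polymerase that extends the chain fell: EXT1 from 6.49, 7.37 and 6.99 FPKM to 3.93, 3.84 and 4.21 FPKM, and EXT2 from 17.2, 17.0 and 18.9 FPKM to 11.0, 9.43 and 11.0 FPKM (log2 fold changes of -0.67 and -0.71; limma, adjusted p = 0.000570 and 0.000813). XYLT2, a xylosyltransferase that places the first sugar on the core protein, fell from 6.08 ± 0.280 to 3.38 ± 0.178 FPKM (SD, 3 libraries each; limma adjusted p = 0.000457). EXTL2, an EXT relative that can stop chain growth, rose from 1.19 ± 0.189 to 2.42 ± 0.108 FPKM (SD, 3 libraries each; limma adjusted p = 0.00113). These 4 stayed called with the trend removed, at log2 fold changes of -0.67, -0.54, -0.40 and 0.50. The list then held 4 lower and 4 higher, in part other genes than before. EXTL3, another EXT relative, named after its values were seen, turned from called lower (-0.21) to called higher (0.20; limma, adjusted p = 0.0373). Without control replicate 2, 4 genes of the list were lower in place of 7.

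Of 7 tested genes of chondroitin and dermatan sulfate assembly, whose chains also bind midkine, 2 fell, 1 rose and 4 did not pass. The chain-building enzymes CHSY1 and CHPF2 fell from 7.62 ± 0.0839 to 5.20 ± 0.277 FPKM and from 14.1 ± 0.549 to 9.11 ± 0.228 FPKM (SD, 3 libraries each; limma adjusted p = 0.00100 and 0.000511). CSGALNACT2, which starts the chain, rose from 1.99 ± 0.198 to 2.71 ± 0.292 FPKM (SD, 3 libraries each; limma adjusted p = 0.0209). With the trend removed these falls were -0.21 and -0.26 on the log2 scale and still called, while the sign of CSGALNACT2 turned (log2 fold change -0.13; limma, adjusted p = 0.221). The call of CSGALNACT2 also ended without control replicate 3 (adjusted p = 0.0668).

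Other proteoglycan core proteins included several of the basement membrane that fell. Of 13 tested core proteins and syndecan adaptors, 7 fell, 0 rose and 6 did not pass, with a median log2 fold change of -0.24 and a median GC content of 55.5%. COL18A1, the heparan sulfate proteoglycan collagen XVIII, fell from 15.9, 19.8 and 18.5 FPKM to 8.70, 9.36 and 9.79 FPKM (log2 fold change -0.89; limma, adjusted p = 0.000617). HSPG2, perlecan, fell from 6.31 ± 0.856 to 2.81 ± 0.467 FPKM and AGRN, agrin, from 33.3 ± 2.33 to 20.4 ± 1.61 FPKM (SD, 3 libraries each; limma adjusted p = 0.00127 and 0.000920). These stayed lower with the trend removed (-0.52, -0.50 and -0.30). GPC1, a glypican anchored in the membrane by lipid, fell from 9.60 ± 0.502 to 7.67 ± 0.521 FPKM (SD, 3 libraries each; limma adjusted p = 0.0120) and was not called with the trend removed (-0.03; adjusted p = 0.665). The list then held 4 lower and 2 higher, and without Bmi1 shRNA replicate 1 it held 1 higher.

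Genes that make, cut or read hyaluronan, and those that tie CD44 to the cytoskeleton, were also mixed: of 11 tested, 5 fell, 2 rose and 4 did not pass. MSN, moesin, which links the tail of CD44 to actin, fell from 155, 174 and 166 FPKM to 89.5, 83.0 and 104 FPKM, and its low-level relative RDX, radixin, rose from 0.905, 0.878 and 0.687 FPKM to 1.86, 1.65 and 1.94 FPKM (log2 fold changes of -0.84 and 0.63; limma, adjusted p = 0.000759 and 0.00115). RDX passed the filter of 1 FPKM only through its Bmi1 shRNA libraries, which limits what its test shows. CEMIP, which degrades hyaluronan, fell from 41.9, 46.8 and 33.2 FPKM to 16.6, 18.4 and 19.0 FPKM (log2 fold change -1.12; limma, adjusted p = 0.000848). HMMR, a hyaluronan-binding protein that also serves the mitotic spindle, rose from 1.95 ± 0.0609 to 5.94 ± 0.135 FPKM (SD, 3 libraries each; limma adjusted p = 0.000158). All 4 kept direction and call with the trend removed, at log2 fold changes of -0.59 for MSN, 0.24 for RDX, -0.71 for CEMIP and 0.71 for HMMR.

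Around LRP1, 11 of 14 tested ligands, chaperones and family members fell, 1 rose and 2 did not pass, with a median log2 fold change of -0.42. PDGFB, a growth factor chain whose receptor works with LRP1, fell from 20.7, 22.5 and 21.3 FPKM to 13.0, 11.9 and 12.9 FPKM, and THBS1, the LRP1 ligand thrombospondin 1, from 2.12, 2.48 and 2.33 FPKM to 1.25, 1.07 and 1.22 FPKM (log2 fold changes of -0.73 and -0.60; limma, adjusted p = 0.000374 and 0.000953). The 1 that rose was SERPINA1, a protease inhibitor, given above among the hepatocyte markers. With the trend removed PDGFB and THBS1 stayed lower (-0.43 and -0.46), and the list held 5 lower and 2 higher. Its median GC content was 54.5%.

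Proteases that release syndecans, CD44 and LRP1 from the membrane, and gamma-secretase, which cuts the stub that remains, made up a list of 16 tested genes with their inhibitors. Of these 8 fell, 3 rose and 5 did not pass, with a median log2 fold change of -0.18. Subunits of gamma-secretase went apart: PSEN2 fell from 5.02 ± 0.124 to 2.82 ± 0.262 FPKM and NCSTN from 16.9 ± 0.236 to 11.8 ± 1.07 FPKM, while PSENEN rose from 31.0 ± 0.998 to 44.1 ± 1.97 FPKM (SD, 3 libraries each; limma adjusted p = 0.000654, 0.00209 and 0.000830). TIMP4, an inhibitor of metalloproteinases, fell from 18.8 ± 1.30 to 13.4 ± 0.101 FPKM (SD, 3 libraries each; limma adjusted p = 0.00164). With the trend removed all 4 kept direction and call (-0.44, -0.27, 0.49 and -0.43), and the list then held 4 lower and 3 higher.

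Transcription factors that have been studied at the MDK or SPP1 promoter mostly fell: 9 of 13 tested, with 1 higher and 3 that did not pass, a median log2 fold change of -0.51 and a median GC content of 53.9%. HIF1A, the hypoxia-regulated factor, was the 1 that rose, from 5.20, 4.61 and 4.81 FPKM to 9.62, 9.97 and 11.7 FPKM (log2 fold change 0.96; limma, adjusted p = 0.000432). Its paralog EPAS1 fell from 12.8, 13.9 and 13.0 FPKM to 6.36, 6.18 and 6.88 FPKM (log2 fold change -0.93; limma, adjusted p = 0.000267). ETS2, of the ETS family, fell from 126 ± 4.86 to 72.5 ± 3.02 FPKM and NFKB1, an NF-kappa B subunit, from 4.35 ± 0.403 to 2.59 ± 0.260 FPKM (SD, 3 libraries each; limma adjusted p = 0.000280 and 0.00204). After trend removal the list held 8 lower and 1 higher, and HIF1A (0.46), EPAS1 (-0.58), ETS2 (-0.59) and NFKB1 (-0.33) kept direction and call.

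**Figure D4:**
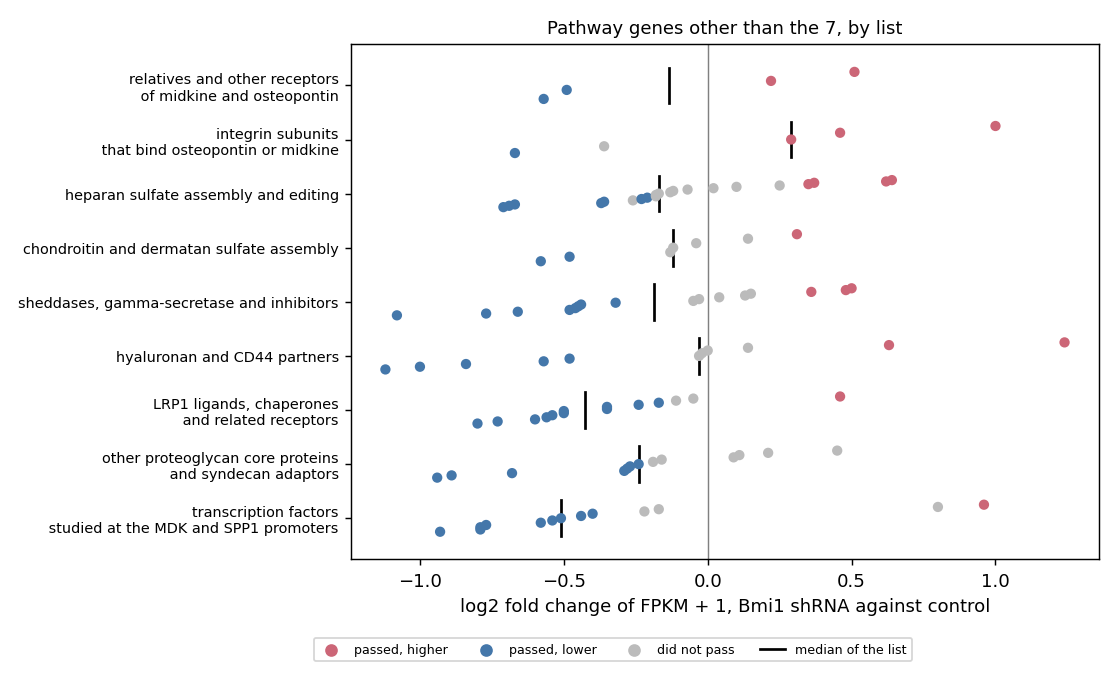
Log2 fold change of FPKM + 1 (Bmi1 shRNA against control, horizontal axis) of 104 tested pathway genes in 9 lists (rows), coloured by whether the gene passed the threshold higher or lower or did not pass, with a black line at the median of each list. The integrin subunits have a median of 0.29 and the other lists medians between -0.51 and -0.03.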

How the data were processed

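The deposited table held 6 libraries as FPKM, computed by the authors. The submitters' processing notes list Bowtie (0.12.2), HISAT2 (2.0) and StringTie (1.3.0) without their roles and name the build as mm8, a mouse build, while the labels and 19870 of 27238 row names are human, so the build is not settled. Columns were matched to samples by abbreviation and replicate number, and 0 sample columns were left unused. Gene positions, GC content and length come from GENCODE 29 (GRCh38; longest protein-coding transcript), known for 92.8% of tested rows. Library depth is unknown.

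Tests used limma 3.58.1 (R 4.3.3) on log2(FPKM + 1) over the 11016 rows that averaged 1 FPKM or more, with group as the sole term, a trend in the variance and Benjamini-Hochberg adjustment over all tested rows; a row was called at an adjusted p under 0.05. Fold changes on that scale understate those of low genes. All 7 genes passed the filter. The genes and lists were chosen with earlier results of these data known. The trend with GC content and length was removed from each library with natural splines (5 degrees of freedom each). Other alternatives covered the pseudocount, the filter, scaling, the variance prior, the replicate block and each library left out. Count tests, planned only for raw counts, were left out. The fit was tested on simulated data.

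Named were the 7 genes and BMI1, every tested gene of the 2 receptor lists, up to 4 called genes with the smallest p in each other list, up to 3 markers with the highest level per cell type, and the 5 genes nearest to MDK and to SPP1. A gene that this rule names is not reported here. No label ties the libraries to separate cultures beyond the word independent, so p-values measure the spread between these libraries.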

Additional observations from a re-analysis of the deposited data

How the results depend on the processing

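The 7 genes and lists were refitted with another pseudocount, filter, scaling or variance prior, with a replicate block, with each library left out and with the trend of GC content and length removed. With the trend removed MDK went to 1.86, SPP1 to 1.05, SDC4 to -0.31 and LRP1 to -0.14 on the log2 scale, and SDC1 and SDC3 turned to 0.08 and 0.11. It left 1957 rows higher and 2100 lower over all genes tested (10225 rows instead of 11016), against 3152 and 3143. By list it left 1 relative or other receptor higher, 1 integrin subunit higher, 4 heparan sulfate genes lower, 3 chondroitin genes higher, 4 sheddase genes lower, 2 LRP1 genes higher and 5 lower, and 2 other proteoglycan genes higher and 4 lower. Scaling libraries to a total of 1000000 gave CD44 -0.82, SDC1 -0.30, SDC4 -0.52 and LRP1 -0.82, with 1 relative or other receptor and 0 chondroitin genes higher. Quantile normalization gave SDC1 -0.29 and SDC4 -0.55, and upper quartile scaling 1 other proteoglycan gene higher. A pseudocount of 0.1 FPKM gave MDK 2.15 and LRP1 -0.81. A mean of at least 5 FPKM, which tests fewer rows (5641), left 1631 rows higher and 1847 lower. BMI1, SDC3 and LRP1 average less than that and have no value there. It left 1 relative or other receptor higher and 1 lower, 1 integrin subunit, 0 chondroitin genes, 1 sheddase gene and 0 hyaluronan genes higher, and 4 heparan sulfate and 5 sheddase genes lower. With no filter, 1 relative or other receptor was higher and 4 heparan sulfate genes were lower. Libraries with the same replicate number showed no clear shared deviation, with correlations of deviations of 0.00374, -0.0791 and -0.0234. Such values cannot show whether those libraries were prepared together. With the replicate block 1 relative or other receptor and 0 chondroitin genes were called higher. With 1 library left out the counts ran from 0 to 1 chondroitin gene higher, 4 to 9 heparan sulfate genes lower, 1 to 2 integrin subunits lower, 0 to 1 other proteoglycan gene higher and 1 to 2 relatives or other receptors higher. The causes of these moves were not tested, and some settings also held fewer rows or libraries. Apart from the trend removal, each of the 7 genes kept its direction in every setting that gave it a value. With 3 libraries a group and no read numbers, small differences such as that of SDC1 are limited by the spread between libraries.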

Other observations

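Some pathway genes lay near the filter on low values and were not tested. Chosen after their values were seen, GLI1 and GLI2, transcription factors of the Hedgehog pathway, averaged 1.32 and 0.898 FPKM in control and 0.566 and 0.410 FPKM in Bmi1 shRNA libraries. The groups did not overlap for either gene, which also held for 65.4% of all tested rows, so nothing is read from it. HAS3, a hyaluronan synthase, read 0.667, 0.517 and 0.555 FPKM in control and 0.353, 1.18 and 1.62 FPKM in Bmi1 shRNA libraries, so the groups overlapped and Bmi1 shRNA replicate 1 lay below every control library. GPC2, a glypican described as a midkine partner, averaged 0.896 and 1.06 FPKM, with overlapping groups. No test was made of these differences.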
